A study of Homo sapiens with 4 samples.

Results

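Plasminogen activators and the serpins that restrain them were followed in ES2 ovarian cancer (OCa) cells treated with liquiritigenin (Liq). The 8 members were chosen by gene symbol from the 23228 genes listed in the count files, with earlier results of these data known. They were the activators PLAU and PLAT, the urokinase receptor PLAUR, plasminogen itself (PLG), and the serpins SERPINB2, SERPINE2, SERPINB8 and SERPINB7. Liq lowered the RNA of 6 of them, and SERPINB2 fell furthest, to 23.4% of its vehicle level. Both activators and the receptor also fell, by smaller amounts. SERPINE2 was at 34.5 and 34.6 CPM (counts scaled to library size) in vehicle and Liq, and no read was counted on PLG.

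The ES2 line was established from a human ovarian carcinoma. Liq is a plant flavanone that the study used as a natural agonist of estrogen receptor beta (ERβ). One group received vehicle and the other received 100 μM Liq, both for 24 h, with 2 RNA-seq samples per group. Both groups were grown in medium free of phenol red, a weak estrogen, with serum stripped of steroids by dextran-charcoal. The comparison asks which genes of this system respond to the agonist. It covers 1 cell line, 1 dose and 1 time, and the labels do not say whether the 2 samples of a group came from separate cultures, so p-values measure the spread between these samples only. In bulk RNA, fewer cells of a type and less RNA per cell cannot be told apart.

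The serine proteases urokinase (PLAU) and tissue-type plasminogen activator (PLAT) cut plasminogen into plasmin, which digests fibrin and other matrix proteins and activates further proteases. Urokinase works on the cell surface when held by its receptor PLAUR, and this system is a textbook route by which carcinoma cells open a path through matrix. Serpins are suicide inhibitors. A protease cuts the exposed reactive loop of a serpin and stays trapped on it. SERPINB2 (plasminogen activator inhibitor type 2) and SERPINE2 (protease nexin) both inhibit urokinase, and SERPINE2 also inhibits thrombin, whereas SERPINB8 inhibits furin and SERPINB7 is an intracellular serpin of stratified epithelium.

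The depth was similar in the groups. Gene-assigned reads per sample numbered 34573053 to 48933893, and 3 counts corresponded to 0.0598 to 0.0844 CPM, the limit that a count of 0 allows (counting error only). The 2 samples of a group differed by more than sampling noise, with a chi-square per degree of freedom of 6.33 in vehicle and 11.1 in Liq, against 58.4 to 71.4 between groups. Of 5 mesenchymal genes, 2 fell, 2 rose and 1 did not pass. VIM fell from 7479 to 6176 CPM (adjusted p = 0.0003409). FN1 fell from 7727 to 6954 CPM (adjusted p = 0.02367). CDH2 rose by 0.22 on the log2 scale (adjusted p = 0.02645) and COL1A1 by 0.17 (adjusted p = 0.04572). SPARC did not pass (adjusted p = 0.7933). The keratin KRT7 rose from 252 to 358 CPM (adjusted p = 1.081e-05) and KRT18 fell from 198 to 167 CPM (adjusted p = 0.01322). Several markers common in ovarian carcinoma were absent or nearly so: CDH1 and MSLN had no counts in any sample, and MUC16, EPCAM and KRT19 had at most 3. PAX8 fell from 49 and 46 counts to 12 and 29 (adjusted p = 0.002137), and WT1 from 168 and 181 counts to 98 and 140 (adjusted p = 0.002849). ESR2, which encodes ERβ, had 4 and 7 counts in vehicle and 5 and 14 in Liq. The other listed estrogen receptor genes had more reads in every sample, and neither passed. ESR1 had 22 and 17 counts in vehicle and 19 and 34 in Liq (adjusted p = 0.5539). GPER had 23 and 24 in vehicle and 19 and 26 in Liq (adjusted p = 0.7319). Of 9 leukocyte markers, PTPRC was at 0, 0, 0 and 1 counts, CD3E and MS4A1 were at 0 in every sample, and 3 had enough reads to be tested. CSF1R fell from 36 and 27 to 12 and 15 counts (adjusted p = 0.007349) and LYZ from 23 and 15 to 8 and 9 counts (adjusted p = 0.0407). The summed level of the list was 69.0 and 75.8 CPM in vehicle and 67.0 and 78.3 CPM in Liq, nearly all of it CD68. Of 5 endothelial markers, 2 were tested. CDH5 went from 51.8 to 46.4 CPM and did not pass (adjusted p = 0.1673). KDR fell by 0.79 on the log2 scale (adjusted p = 0.006026), and PECAM1 had at most 10 counts. Their summed level, nearly all of it CDH5, was 55.9 and 53.3 CPM in vehicle samples against 49.6 and 46.2 CPM with Liq. The part of these markers in the members' changes was not tested.

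Of the 8 members, 7 had enough reads to be tested, each with at least 945 counts in every sample. In edgeR's quasi-likelihood test with Benjamini-Hochberg adjustment over all 13546 genes tested, 6 members were lower in Liq at an adjusted p below 0.05, where 11.3% of all genes were, and 0 were higher, where 12.6% were. A change of at least 1.5-fold was also met by 4 of the 6 (SERPINB2, SERPINB8, SERPINB7 and PLAT), against 2.16% of all genes called lower, and by 0 in the other direction, against 4.29%. In 6 members both Liq samples lay below both vehicle samples, as in 30.2% of all genes. The median log2 fold change of the 7 was -0.70, and that of all genes tested was 0.01. With offsets that follow the expression level, the genes called over the whole table moved from 581 higher and 293 lower to 350 higher and 396 lower, and the members called stayed at 0 higher and 4 lower.

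**Figure D1:**
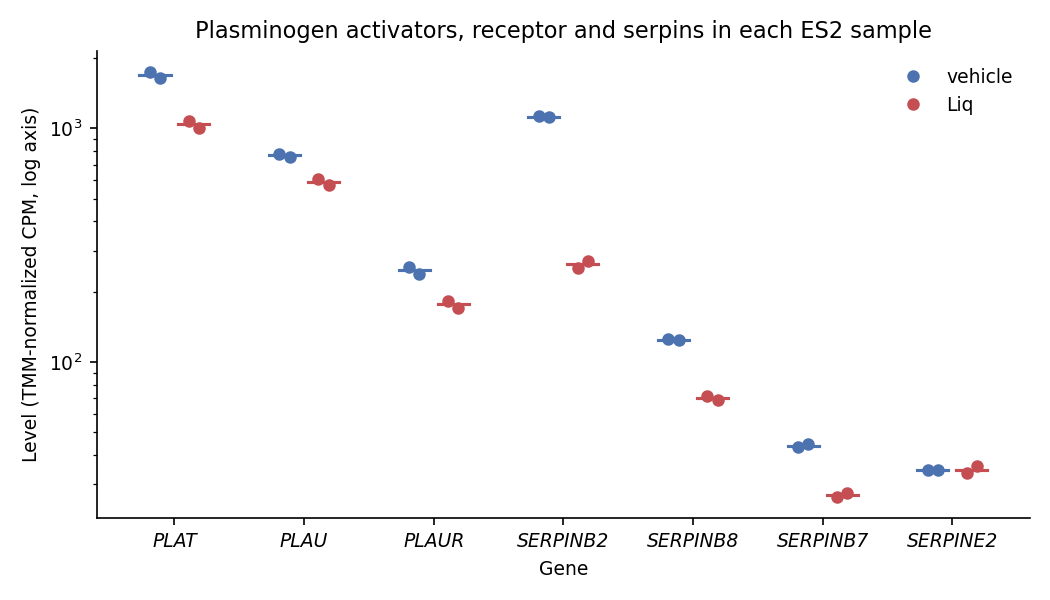
Level of each of the 7 detected members in every sample, as CPM with TMM library sizes on a log axis. Points are samples (vehicle blue, Liq red, 2 per group) and bars are group means. The Liq points lie below the vehicle points for every gene except SERPINE2, and the widest gap is that of SERPINB2, at 1124 against 262 CPM.

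PLAT, on chromosome 8 from 42032236 to 42065227 (minus strand, GRCh37, GENCODE annotation), is best known as the activator of fibrin-bound plasminogen in blood vessels. It had the most reads of the members, at 1744 and 1640 CPM in the vehicle samples and 1078 and 1009 CPM in the Liq samples. Both Liq samples stood well below both vehicle samples. The level fell by 0.70 on the log2 scale (adjusted p = 1.584e-09, SE 0.06), to 61.7% of vehicle. PLAT ranked above 99.7% of the tested genes by mean CPM.

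PLAU, on chromosome 10 from 75668935 to 75677254 (plus strand), encodes urokinase, the activator that acts at the surface of migrating cells. Its level was 779 and 753 CPM in vehicle and 609 and 572 CPM in Liq. The groups did not overlap, but the change was the smallest among the 6 members that fell. PLAU fell by 0.38 on the log2 scale (adjusted p = 6.919e-05, SE 0.06), to 77.1% of vehicle and short of 1.5-fold. A long noncoding gene on the opposite strand, C10orf55, shares 915 exonic bases with PLAU. It had only 126 to 145 counts per sample, with a log2 fold change of -0.10 (adjusted p = 0.7002), and the strand setting of the counting was not given in the sources used here.

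PLAUR, on chromosome 19 from 44150247 to 44174699 (minus strand), encodes the lipid-anchored receptor that gathers urokinase on the membrane. It was at 256 and 239 CPM in vehicle and 183 and 170 CPM in Liq, again with no overlap. The level fell by 0.49 on the log2 scale (adjusted p = 1.272e-05, SE 0.07), to 71.3% of vehicle, which is 1.40-fold. The log2 fold changes of the receptor and its ligand differed by 0.11, with a 95% interval, from the normal approximation, of -0.07 to 0.30.

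PLG, on chromosome 6 from 161123226 to 161175129 (plus strand), encodes the zymogen that both activators cut, which is made mainly by the liver. It had 0 counts in all 4 samples. Its close copies LPA, PLGLB1 and PLGLB2 were also at 0, and reads that align equally well to several copies are not counted by the method used. PLG RNA was thus not detectable at this depth.

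SERPINB2, on chromosome 18 from 61538926 to 61571122 (plus strand), encodes an inhibitor of urokinase and of the free form of PLAT. Its reads numbered 46555 and 41769 in vehicle and 9001 and 13644 in Liq. As CPM, the values were 1132 and 1116 in vehicle and 253 and 272 in Liq, so the samples of each group lay close together and far from the other group. Its log2 fold change of -2.10 (adjusted p = 6.857e-19, SE 0.06) was number 20 from the lowest of the 13546 genes tested, with a 95% interval from -2.23 to -1.97. SERPINB2 fell by 1.26 more on the log2 scale than SERPINB8, the next member in order (95% interval 1.07 to 1.46).

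SERPINE2, on chromosome 2 from 224839762 to 224904035 (minus strand), encodes a secreted inhibitor of urokinase, PLAT and thrombin. It was the only detected member whose groups overlapped, at 34.6 and 34.5 CPM in vehicle and 33.5 and 35.8 CPM in Liq. The log2 fold change was 0.01 (SE 0.09, adjusted p = 0.9714), with a 95% interval from -0.17 to 0.18. A change of 1.5-fold lies outside that interval. SERPINE2 was also the least abundant detected member by length-scaled level in vehicle.

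SERPINB8, on chromosome 18 from 61637263 to 61687013 (plus strand), encodes a cytoplasmic inhibitor of furin, a protease that matures many secreted proteins. It lay at 125 and 124 CPM in vehicle samples and at 71.3 and 68.6 CPM in Liq. The 2 vehicle samples were nearly equal, and both Liq samples were well below them. The level fell by 0.84 on the log2 scale (adjusted p = 3.869e-09, SE 0.08), to 56.0% of vehicle. HMSD, which shares 370 exonic bases with SERPINB8 on the same strand, had 0 counts in every sample.

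SERPINB7, on chromosome 18 from 61420169 to 61472610 (plus strand), is known from skin, where its loss causes a palmoplantar keratoderma. The vehicle samples were at 43.2 and 44.7 CPM and the Liq samples at 26.6 and 27.6 CPM. The groups were again apart by far more than their spread. The level fell by 0.70 on the log2 scale (adjusted p = 1.3e-06, SE 0.09), to 61.7% of vehicle. SERPINB7 and PLAT moved by the same amount to 2 decimals, with a 95% interval of their difference from -0.21 to 0.21.

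**Figure D2:**
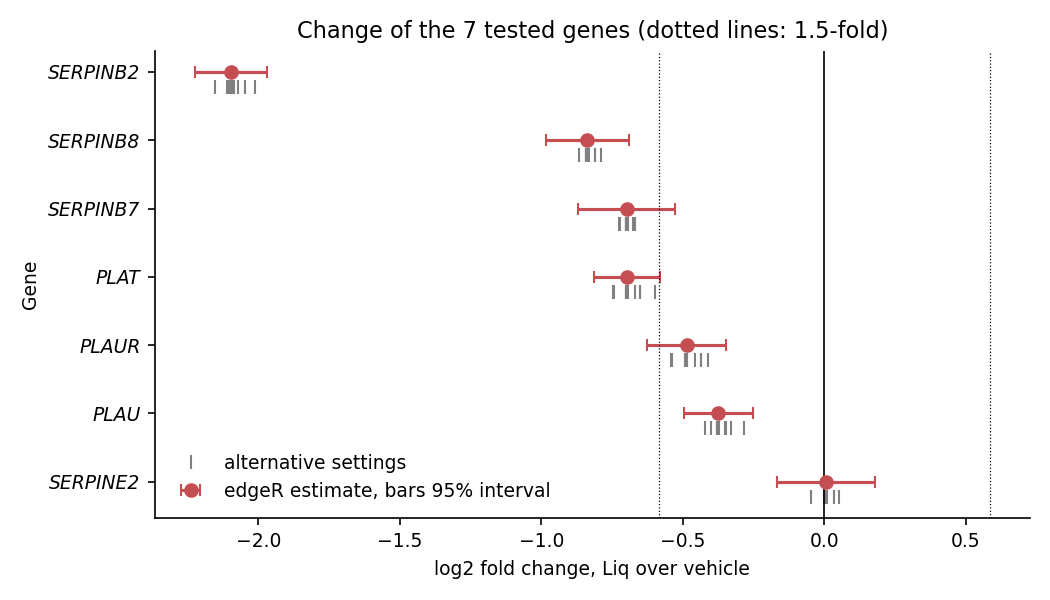
log2 fold change (Liq over vehicle) of the 7 tested members from edgeR, with bars of the 95% interval, and gray ticks for the values under the alternative settings. SERPINB2 stands apart at -2.10, SERPINE2 lies on 0, and the other 5 lie between -0.84 and -0.38. The ticks of PLAT stay to the left of the dotted 1.5-fold line, and those of PLAUR and PLAU to the right of it.

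The order of the falls was SERPINB2, SERPINB8, SERPINB7, PLAT, PLAUR, PLAU and SERPINE2. Within that order, the gaps from SERPINB8 to SERPINB7, from SERPINB7 to PLAT and from PLAUR to PLAU had 95% intervals that included 0. The gap from PLAT to PLAUR was 0.21 on the log2 scale (95% interval 0.03 to 0.39), and that from PLAU to SERPINE2 was 0.38 (0.17 to 0.59). These intervals combine the SEs of both genes and were not adjusted for the 6 gaps compared.

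**Figure D3:**
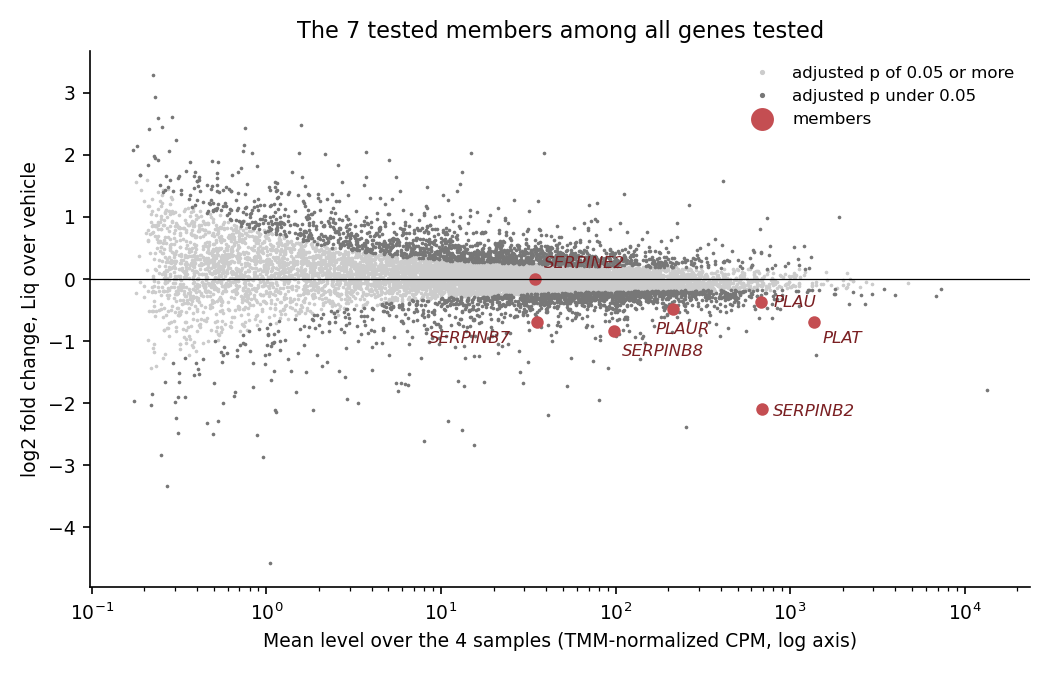
log2 fold change (Liq over vehicle) against the mean level over the 4 samples (TMM-normalized CPM, log axis) for the 13546 genes tested. Dark gray marks genes with an adjusted p under 0.05, light gray the others, and red the 7 members. SERPINB2, at -2.10, lies well below the cloud, and PLAT, PLAU and PLAUR lie along the lower edge of the cloud.

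Per kilobase of the canonical transcript, the levels changed places. In vehicle, SERPINB2 led at 590 ± 6.15 CPM per kb (SD, n = 2), with PLAT close behind at 553 ± 24.0. PLAU followed at 327 ± 7.84 and PLAUR at 181 ± 8.82 CPM per kb. The remaining serpins were far lower, with SERPINB8 at 37.6, SERPINB7 at 20.0 and SERPINE2 at 15.5 CPM per kb. The samples of SERPINB2 and PLAT in vehicle did not overlap, at 594 and 585 against 570 and 536 CPM per kb.

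In Liq, PLAT led at 341 ± 15.9 CPM per kb, PLAU came next at 252 ± 11.2, and SERPINB2 fell to the third place at 138 ± 6.95. PLAUR was then close to it at 129 ± 6.64 CPM per kb, and their samples overlapped (133 and 143 for SERPINB2, 134 and 124 for PLAUR). SERPINE2, at 15.6, stood above SERPINB7, at 12.3 CPM per kb. These orders rest in part on the choice of transcript. With all annotated exons as the length, PLAU took place 2 and PLAT place 3 in vehicle, and PLAU also stood above PLAT in Liq. On that scale SERPINB2 in Liq was at 92.3 and 99.2 CPM per kb, apart from PLAUR at 41.1 and 38.2, and SERPINB7 (10.3 CPM per kb) stood above SERPINE2 (3.87).

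The summed level of the 8 members was 4115 and 3951 CPM in vehicle and 2254 and 2155 CPM in Liq, whereas that of the 75 other listed genes of the plasminogen system averaged 12560 CPM in each group. SERPINB2 made up 47.1% of the summed loss of 1828.6 CPM and PLAT 35.5%, with PLAU at 9.6% and PLAUR at 3.9%. As a share of the members' reads, SERPINB2 went from 27.9% to 11.9%, PLAT from 42.0% to 47.3%, and PLAU from 19.0% to 26.8%.

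Because activator and inhibitor fell unequally, their ratio within a sample moved, and such a ratio does not depend on the normalization. The samples had 0.69 and 0.68 PLAU reads per SERPINB2 read in vehicle and 2.41 and 2.11 in Liq. The inhibitor therefore had more reads than urokinase in both vehicle samples and fewer in both Liq samples, a 3.30-fold difference. Against SERPINE2 the direction was opposite, with 22.5 and 21.8 PLAU reads per SERPINE2 read in vehicle and 18.2 and 16.0 in Liq. The 2 serpins that inhibit urokinase shifted against each other by 4.29-fold, from 32.7 and 32.4 SERPINB2 reads per SERPINE2 read to 7.56 and 7.59.

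Among the activators, PLAT reads per PLAU read went from 2.24 and 2.18 to 1.77 and 1.76. PLAUR reads per PLAU read went from 0.33 and 0.32 to 0.30 in both Liq samples. In all 5 ratios the groups did not overlap. The two-sided exact permutation test gave p = 0.3333 for each, also after adjustment over the 5, which is the smallest p that 2 samples against 2 allow.

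SERPINB7, SERPINB2 and SERPINB8 lie in the clade B serpin cluster at 18q21, on the same strand, at 276, 395 and 493 kb from the start of its first gene. They were the 3 genes of the 10 in the cluster with enough reads to be tested, and all 3 were called lower, where 2.16% of all genes were. All 3 are members already counted above, so the cluster adds no further tested gene. SERPINB10, which lies between SERPINB2 and SERPINB8, had 5 and 4 counts in vehicle and 7 and 4 in Liq. SERPINB3, SERPINB4, SERPINB5 and SERPINB11 had at most 2 counts in any sample, and SERPINB12 and SERPINB13 had none. SERPINB3 and SERPINB4 are near-identical copies, so reads they share would not have been counted. Of the related cluster at 6p25, SERPINB1 went from 32.4 to 31.2 CPM (adjusted p = 0.7134) and SERPINB6 from 106 to 95.9 CPM (adjusted p = 0.1735), and neither passed.

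**Figure D4:**
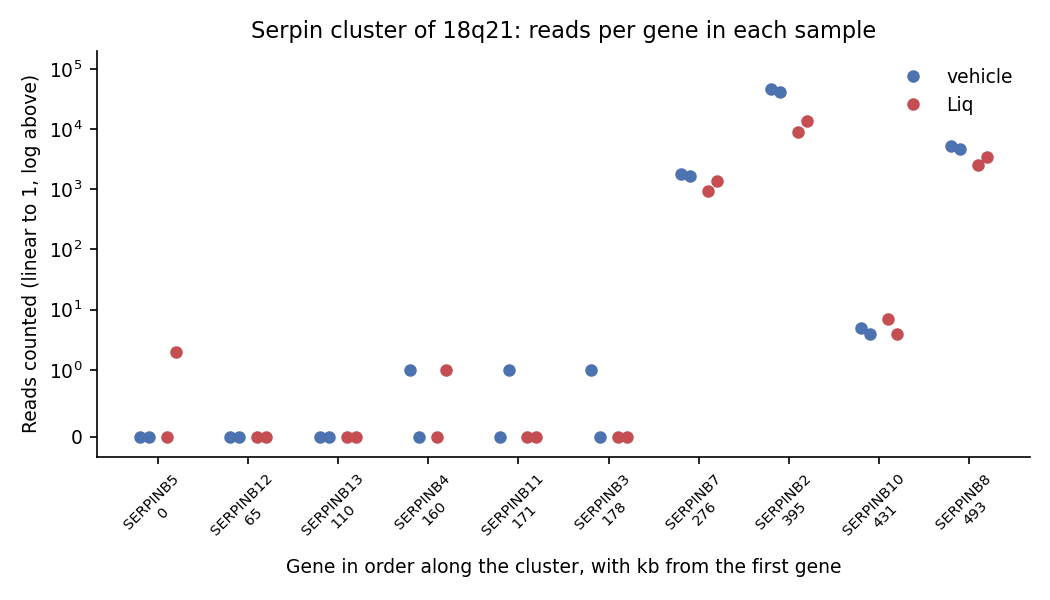
Reads counted on each of the 10 genes of the serpin cluster at 18q21 in every sample (vehicle blue, Liq red), on an axis that is linear to 1 and logarithmic above, with genes in order along the chromosome and their distance in kb from the first gene. Only SERPINB7, SERPINB2 and SERPINB8 exceed 7 counts, and their Liq samples lie below their vehicle samples.

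The upstream sequences of the 3 clustered serpins are shown because these neighbours fell together and each holds a match to the AP-1 element, the site bound by FOS and JUN dimers. RefSeq starts were available for 7 members (12 windows of 250 bases), and their sequences were placed on GRCh37 by exact match. Capitals mark matches to AP-1 (TGANTCA) or, in SERPINB2 alone, the cyclic AMP element (TGACNTCA), on either strand. Bases that lie in annotated exons of the gene are left out, so SERPINB7 (the third of its windows) and SERPINB8 are shown in part. All are on the plus strand, 5′ to 3′.
SERPINB2 chr18:61554689-61554938: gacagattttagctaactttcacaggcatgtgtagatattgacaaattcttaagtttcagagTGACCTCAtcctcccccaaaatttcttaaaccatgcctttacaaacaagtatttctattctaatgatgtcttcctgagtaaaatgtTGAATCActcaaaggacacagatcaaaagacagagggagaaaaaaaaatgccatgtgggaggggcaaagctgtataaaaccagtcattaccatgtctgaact
SERPINB7 chr18:61444765-61445010: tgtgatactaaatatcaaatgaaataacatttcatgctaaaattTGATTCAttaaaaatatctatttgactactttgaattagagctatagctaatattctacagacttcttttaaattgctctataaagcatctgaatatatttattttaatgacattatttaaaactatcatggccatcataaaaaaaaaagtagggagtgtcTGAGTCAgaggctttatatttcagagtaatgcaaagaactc
SERPINB8 chr18:61637065-61637262: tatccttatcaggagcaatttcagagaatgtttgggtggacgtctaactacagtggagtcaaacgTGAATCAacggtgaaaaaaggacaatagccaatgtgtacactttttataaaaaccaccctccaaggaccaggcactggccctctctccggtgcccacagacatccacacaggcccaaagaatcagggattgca

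In SERPINB2 the AP-1 match begins 102 bases upstream of the start site, the cyclic AMP match 188 bases upstream and the letters of a TATA box 30 bases upstream. The first bases of that cyclic AMP match also hold, on the other strand, the letters of an estrogen response element core. In SERPINB7 the AP-1 matches begin 206 and 45 bases upstream in the window shown, and its second window has AP-1 matches at 154 bases and, in an annotated exon, at 39 bases. In SERPINB8 the match shown begins 185 bases upstream, and another at 28 bases falls in the annotated first exon and is not shown.

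AP-1 letters were found in 5 of the 12 member windows and in 6.57% of all 35116 promoter windows of this length. The 5 were the windows of SERPINB2, SERPINB8 and PLAUR, and windows 2 and 3 of SERPINB7. The PLAUR match begins 186 bases upstream, in a window that lies wholly in an annotated exon. Window 1 of SERPINB7 and the windows of PLAU, SERPINE2 and PLG held none. PLAT, a called member, had no window, and PLAU fell without a match in its windows. The cyclic AMP letters were in 6.87% of all windows, the TATA box TATAAA in 10.7%, the estrogen element core GGTCA in 32.6% (3 member windows), the ETS core AGGAAG in 28.7% (4), and the antioxidant element TGACNNNGC in 10.9% (2). The κB consensus was in 9.96% of all windows and in 1 of the members' windows, the first of SERPINB7. These matches are descriptions of letters and not of binding, and windows of the same gene are not independent.

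Beyond the members, 75 genes of the plasminogen system were listed, in 5 groups by role, and 34 were tested. Of these, 12 rose, 5 fell and 17 did not pass, with 3 called in each direction and a median log2 fold change of 0.13. The members, by comparison, had 6 lower and 0 higher.

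Among the other inhibitors the directions were mixed. Of 12 listed, 5 were tested, 3 rose and 1 fell, with a median log2 fold change of 0.32. TFPI2, a matrix-bound inhibitor of plasmin, fell from 179 ± 2.27 to 97.9 ± 12.4 CPM (log2 fold change -0.87, adjusted p = 6.902e-09). SERPINI1 (neuroserpin), an inhibitor of PLAT known from brain, rose from 3.46 ± 0.06 to 5.71 ± 0.21 CPM (log2 fold change 0.72, adjusted p = 0.0005671). SERPINF1, counted in this list though not a protease inhibitor, rose by less (log2 fold change 0.32, adjusted p = 0.02362 in edgeR). Its adjusted p was 0.07686 with DESeq2 and 0.06365 with loess offsets. Leaving out 1 sample at a time gave log2 fold changes of 0.29 to 0.35. SERPINF2, the circulating plasmin inhibitor, had at most 3 counts.

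Of 6 listed plasminogen receptors, 5 were tested, 0 rose and 2 fell, with a median log2 fold change of -0.24. ANXA2, which with S100A10 binds plasminogen and PLAT on the membrane, averaged 1539 ± 65.8 CPM without Liq and 1462 ± 112 CPM with it, and its groups overlapped. ENO1, a glycolytic enzyme that also binds plasminogen at the surface, fell by 0.21 on the log2 scale (adjusted p = 0.008407), and did not pass without vehicle replicate 1 (adjusted p = 0.2357). HMGB1 was at 110 ± 3.31 and 93.0 ± 17.4 CPM (adjusted p = 0.05963), and without Liq replicate 2 it passed (log2 fold change -0.45, adjusted p = 2.423e-06). The histone gene HIST1H2BC, at 24 and 22 counts in vehicle and 12 and 6 in Liq, was called lower (log2 fold change -1.46, adjusted p = 0.01876). Without Liq replicate 2 its log2 fold change was -0.79 (adjusted p = 0.2753), without vehicle replicate 1 or 2 its adjusted p was 0.1053 and 0.09436, and it belongs to a family of near-identical copies.

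Of the partners of PLAUR and the receptors that clear its complexes, 21 were listed and 14 tested, and 6 rose and 0 fell, with a median log2 fold change of 0.19. The integrin subunit ITGB3, which pairs with ITGAV as a vitronectin receptor and lies beside PLAUR on adhesive cells, had 1947 and 1743 reads in vehicle and 3899 and 5462 in Liq. Its level rose from 47.0 ± 0.56 to 109 ± 0.58 CPM (log2 fold change 1.22, SE 0.08, adjusted p = 4.935e-12). The endocytic receptor LRP1, which removes urokinase-inhibitor complexes, rose from 78.0 and 66.0 CPM to 102.6 and 97.7 CPM (log2 fold change 0.47, adjusted p = 0.000132). The collagen receptor MRC2 also rose (log2 fold change 0.51, adjusted p = 0.000235).

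Among the most abundant of these partners, ITGB1 was 0.17 higher on the log2 scale (adjusted p = 0.03809), with an adjusted p of 0.3257 without vehicle replicate 1, 0.1047 without vehicle replicate 2 and 0.2276 without Liq replicate 2. CAV1, at 1165 and 1225 CPM, and ITGA3, at 1060 and 1181 CPM, did not pass (adjusted p = 0.3912 and 0.06521), and ITGA3 passed without Liq replicate 2 (adjusted p = 0.01396). ITGB5 also rose (log2 fold change 0.31, adjusted p = 0.002328), with an adjusted p of 0.1716 without vehicle replicate 2.

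Of 23 other proteases that can activate plasminogen, urokinase or their partners, 12 had no counts in any sample, and 7 were tested. PRSS3, a trypsin with near-identical copies, fell from 51.5 ± 5.22 to 30.8 ± 0.21 CPM (log2 fold change -0.74, adjusted p = 7.04e-07). The lysosomal proteases CTSB and CTSL1 did not pass (adjusted p = 0.2644 and 0.2558), and CTSD was 0.28 higher on the log2 scale (adjusted p = 0.01088), with an adjusted p of 0.3538 without vehicle replicate 2. The remaining gene of this group to fall was FAP (log2 fold change -0.39, adjusted p = 0.007257, and 0.07132 without vehicle replicate 1).

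Of 13 plasmin substrates, plasminogen homologues and receptors of such homologues, 3 were tested and 2 rose. MET, the receptor for hepatocyte growth factor, rose from 272 ± 2.72 to 401 ± 26.1 CPM (log2 fold change 0.56, adjusted p = 6.819e-07). MST1, a plasminogen homologue without protease activity that has close copies, rose from 39 and 41 counts to 87 and 110 (log2 fold change 1.18, adjusted p = 0.0003455). LPAL2 was at 3.27 and 2.80 CPM (adjusted p = 0.3447), and the fibrinogen genes FGA, FGB and FGG had at most 2 counts.

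**Figure D5:**
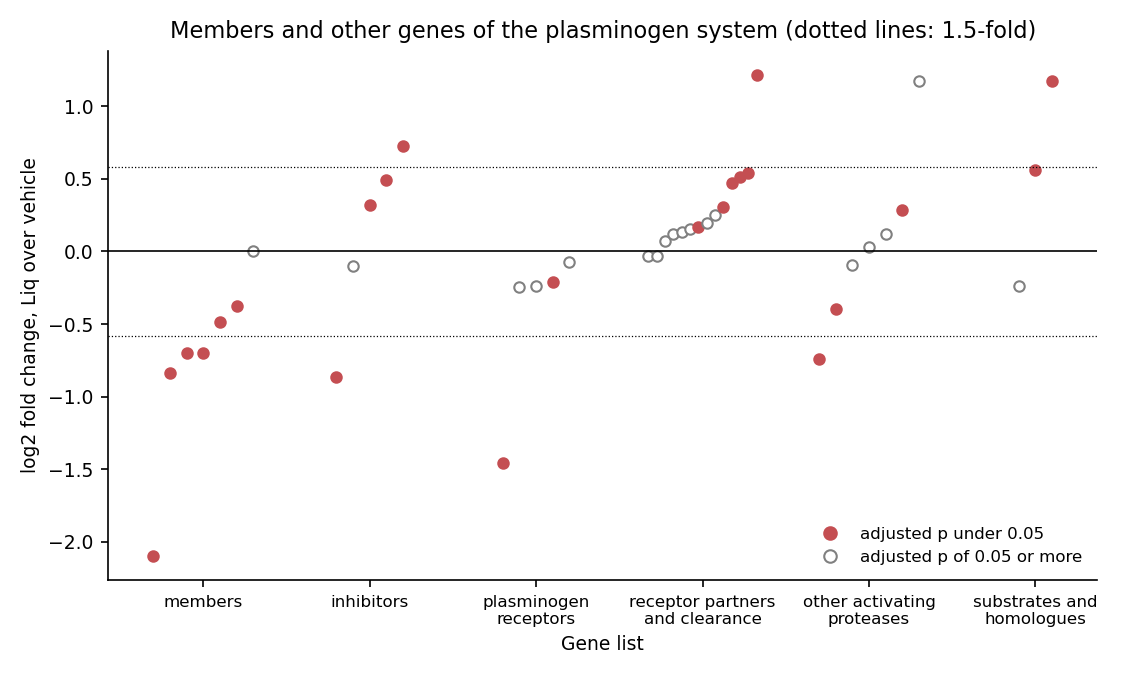
log2 fold change (Liq over vehicle) of the 7 tested members and of the 34 other tested genes of the plasminogen system, by gene list, sorted within each. Filled points have an adjusted p under 0.05 and open points do not. All 6 filled points among the members are below 0, and all 6 among the receptor partners and clearance genes are above 0.

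In the serpin family as a whole, 35 genes were listed and 15 tested. Of these, 3 rose and 6 fell, with 1 called higher and 4 called lower and a median log2 fold change of -0.15. SERPINB2, SERPINB8 and SERPINB7 were 3 of the 4 called lower. The other was SERPIND1 (heparin cofactor), a thrombin inhibitor, which had 586 and 487 counts in vehicle and 78 and 115 in Liq (log2 fold change -2.60, SE 0.14, adjusted p = 1.137e-13). SERPINH1, the collagen chaperone of the endoplasmic reticulum and not a protease inhibitor, fell by 0.26 on the log2 scale (adjusted p = 0.00757), with an adjusted p of 0.2038 without vehicle replicate 1.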

How the data were processed

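RNA-seq was measured in 4 samples of ES2 cells, 2 treated with vehicle and 2 with Liq, grouped by their labels (the dose is that in the methods of the study). The authors deposited raw counts per gene, one table per sample, not normalized. Per the submitters' processing notes, bcl2fastq 2.17.1.14, TopHat2 2.0.8b and HTSeq were used with hg19 (GRCh37). The authors tested with DESeq. The 5 tally lines of each table, 44.4% to 45.9% of all tallied reads, were left out of library sizes and tests. Most were reads without a unique alignment (35.6% to 36.2%), so genes with close copies are undercounted.

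Counts were tested with edgeR 4.0.16 (R 4.3.3) in all 4 samples, with filterByExpr (minimum count 10, minimum total 15), TMM normalization, glmQLFit and glmQLFTest, and Benjamini-Hochberg adjustment over 13546 genes. A gene passed at an adjusted p under 0.05 and was called if it also changed by at least 1.5-fold, the fold of the study. CPM values use TMM library sizes, and each SE is the log2 fold change divided by the square root of F. The script was tested on counts drawn from the real means. Alternatives were other normalizations (DESeq2 size factors, upper quartile, loess offsets with a span of 0.3), other filters, DESeq2 1.42.0, a replicate block, leaving out each sample, other call rules, and, chosen after seeing the data, another transcript length.

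The members and gene lists were chosen with earlier results of these data known. Named were all members and, of each other list, the called genes and the 3 with the highest mean CPM, plus for each called member the 3 genes with the nearest pattern. LRP1, MRC2, ITGB5, FAP, SERPINB1, SERPINB6, SERPINF2, S100A10, CDH2, SPARC and genes with few or no counts were named after their values were seen. Gene positions come from the GENCODE annotation of GRCh37, and promoter sequences from RefSeq (GRCh38.p14). Protein sequences were not analysed here, and some genes that meet the naming rule are not reported here.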

Additional observations from a re-analysis of the deposited data

How the results depend on the processing

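The side of the threshold (adjusted p of 0.05) held for all 7 tested members, and the direction for the 6 that fell, under the 11 refits of each (other normalizations, filters, DESeq2, the replicate block and leaving out each sample). The log2 fold change of SERPINB2 ranged from -2.15 to -2.01, SERPINB8 from -0.87 to -0.79, SERPINB7 from -0.73 to -0.67, PLAT from -0.75 to -0.60, PLAUR from -0.54 to -0.41 and PLAU from -0.42 to -0.29. SERPINE2 lay on either side of 0, from -0.05 to 0.05, with adjusted p values of 0.7484 to 0.9981. The 4 calls among the members became 1 (SERPINB2) at a fold of at least 2, and leaving out a sample left 4. Over all genes, 874 were called, 566 with DESeq2 (339 higher and 227 lower), 3245 at any size and 328 at 2-fold or more, and 659 to 979 without 1 sample. The other genes of the plasminogen system called went from 6 to 17 at any size and 3 at 2-fold, the serpin family from 5 to 9 and 2, and the 18q21 cluster from 3 to 1 at 2-fold. With all annotated exons as the length, PLAU took place 2 and PLAT place 3 in vehicle. For 40 other genes, 29 of 438 refits moved the adjusted p from under to over 0.05, 9 moved it from over to under, and 0 reversed the direction of a gene that passed.

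Samples with the same number deviated from their group means with a correlation of 0.0483, so the numbers were not shown to pair the samples. With the number as a replicate block, 898 genes were called, the members kept 4 calls, SERPINB2 was at -2.10, and HMGB1 (adjusted p = 0.006881) and ITGA3 (0.00459) passed. With 2 samples per group, no group could be screened for outliers, and depth limits what can be said of genes under 0.0844 CPM, such as PLG.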

Other observations

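The genes whose pattern over the 4 samples was most like that of each called member were found among all 13546 tested genes, by the Euclidean distance of log2 CPM centred on each gene's mean. The likeness rests on 4 samples in 2 groups and carries no test. Near SERPINB2 were the sodium channel gene SCN7A (distance 0.08), at 0.75 and 0.77 CPM in vehicle and 0.14 and 0.16 CPM in Liq, and LOC730755 (0.17), at 70.5 and 63.6 CPM in vehicle and 15.02 and 14.33 CPM in Liq. SCN7A was at a far lower level than SERPINB2.

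SERPINB7 lay closest to AOX1, aldehyde oxidase, with a distance of 0.004. AOX1 was at 418 and 430 CPM in vehicle and 257 and 266 CPM in Liq, and the tyrosine phosphatase PTPRE (distance 0.01) and the acyltransferase HHAT (0.03) followed. SERPINB8 lay closest to the stress kinase MAPK13 (0.02), the chemokine CXCL2 (0.03) and ZNF185 (0.03), the last at 272 and 268 CPM in vehicle and 150 and 148 CPM in Liq. Nearest to PLAT were ATXN7L2 (0.03), SH2D1B (0.05) and TMCC3 (0.06), all far less abundant than PLAT. SH2D1B had a log2 fold change of -0.70 (adjusted p = 0.007963 in edgeR), with an adjusted p of 0.09806 without vehicle replicate 1 and 0.08318 with DESeq2.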
